A study of Mus musculus with 12 samples.

Results

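The comparison described here sets bone marrow-derived macrophages labelled Kif13b-deficient against macrophages labelled wild type, both kept with apoptotic cells. All 6 libraries of the table with apoptotic cells were used, 3 labelled KO + AC and 3 labelled WT + AC, out of 12 libraries in the series, and all genes with enough counts were tested, 16467 of 55367 symbols. The macrophages came from tibial bone marrow of mice aged 6 to 8 weeks. The WT + AC group is labelled wild type. The other group is labelled both as Kif13b-/- and as a knock down. KO + AC and WT + AC stand here for the libraries so labelled, since Kif13b itself did not follow the labels. Both groups had been given apoptotic Jurkat cells, which derive from a human T cell leukaemia, for 90 min at 1 macrophage to 5 apoptotic cells. The labels used here name no Cre driver or clone. They leave unsaid whether replicates were separate animals or cultures, and p-values then reflect the variation among these 6 libraries alone.

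Efferocytosis is the engulfment of dying cells, which macrophages do many times over in marrow, in resolving inflammation and in atherosclerotic plaques. Receptors such as MERTK recognise phosphatidylserine on the dying cell, often through secreted bridging proteins, and the engulfed material is then broken down in lysosomes and its cholesterol exported. KIF13B is a kinesin, a motor that carries vesicles and membrane proteins along microtubules. Macrophages also display peptides on MHC class II molecules, whose genes are switched on together through the coactivator CIITA and factors bound to conserved promoter boxes.

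Each library held 17000976 to 17285594 counts, with 31787 to 32801 symbols detected. The libraries without apoptotic cells held 18256622 to 18770757 counts, with 18335 to 18540 symbols detected. Levels of single genes are given in CPM (counts in each 1e6 of a library after scaling). Sums over a list are in CPM without that scaling. Differences are log2 (KO + AC minus WT + AC) with a standard error (SE). A gene was called at a Benjamini-Hochberg adjusted p under 0.05 in edgeR's quasi-likelihood test over all 16467 genes. The spread within groups was small, with a common biological coefficient of variation (edgeR's term) of 0.0294, so small differences were often called. Between pairs of replicate libraries, chi-square per degree of freedom was 1.46 to 2.09, where 1 is counting noise alone. Without apoptotic cells it was 5.35 to 38.7. What the replicates were is not stated, so small p-values here do not show repetition across animals. Macrophage markers were abundant in every library. The sum of all 9 of them, from Adgre1 to Mertk, was 17357, 17191 and 17582 CPM in KO + AC and 15709.7, 15125 and 15532 CPM in WT + AC. Symbols without a single count in the 6 libraries without apoptotic cells, 31367 in all, took 0.363, 0.371 and 0.414% of the counts in KO + AC and 0.411, 0.456 and 0.400% in WT + AC. In each library 10268 to 11132 of these symbols had counts. Human RNA was not measured directly. Where leaving out 1 library moved a list's count of calls by over 1.5 times, the count without it is given, with libraries written as KO + AC 1 to WT + AC 3.

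Kif13b itself was not lower in the libraries labelled KO + AC. The gene (GRCm38 chromosome 14, 64647265 to 64809617, plus strand) had 101, 100.5 and 101 CPM in the libraries labelled KO + AC and 93.7, 89.1 and 94.1 CPM in WT + AC, a small difference in the other direction (log2 0.13, SE 0.040, adjusted p = 0.0261). The groups did not overlap, with every library labelled KO + AC above every WT + AC library. Counts over the whole gene do not show whether the transcript is intact. Nor do they show whether the 2 groups' labels were exchanged, which would turn every direction given here. The call ended without library 1 (adjusted p = 0.0765) or library 2 (0.0612) of KO + AC, without library 2 of WT + AC (0.147), in the joint fit (0.671) and with the scaling on abundant genes (0.24), both described below. Mertk (GRCm38 chromosome 2, 128698956 to 128802894, plus strand) had 48.9, 51.7 and 50.5 CPM in KO + AC and 52.2, 47.2 and 50.4 CPM in WT + AC (log2 0.012, SE 0.049, adjusted p = 0.926), with overlapping groups. Of the 28 tested genes for kinesin transport motors and known KIF13B partners, 2 rose and 1 fell, near the 11.3% called over all genes. The median log2 was 0.047. Besides Kif13b these were Klc1, a light chain of the conventional kinesin (log2 0.13, adjusted p = 0.0238), and Dlg4, a scaffold protein of the family that binds KIF13B (log2 -0.33, adjusted p = 0.00238). Scaling on abundant genes left 0 higher and 1 lower, and leaving out 1 library gave 4 higher without KO + AC 3, 1 higher without WT + AC 2, 0 higher without KO + AC 1 or KO + AC 2 and 0 lower without KO + AC 2. The Dlg4 call ended without KO + AC 2 (adjusted p = 0.0581) and in the joint fit (0.323). That of Klc1 ended without KO + AC 1 (0.0764), KO + AC 2 (0.156) or WT + AC 2 (0.195), with DESeq2 (0.0534), with scaling on abundant genes (0.207) and in the joint fit (0.584).

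Across all genes, 11.3% were called (1866), with 6.58% higher (1083) and 4.75% lower (783) in those labelled KO + AC. Most differences were small: the median size among called genes was 0.23 on the log2 scale, and 7 rose and 21 fell at least 2-fold. Groups did not overlap for 26.4% of all genes tested. Genes named among the largest rises and falls had to be without overlap, so for them its absence is no further support. Such statements on other genes are to be read against the 26.4%. Counts of called list members are likewise to be read against 6.58% higher and 4.75% lower. Lists were not matched for level, and calls rose with it, to 40.4% higher and 6.5% lower at 500 CPM and over. At a mean level of 20 CPM or more, the largest rises included formyl peptide receptors, haptoglobin, MHC class II genes, a TNF family cytokine and the scavenger receptor gene Marco. The largest falls included collagens, other matrix genes, Mfge8 and the interleukin 1 receptor gene Il1r1. The plot of difference against level shows these genes within the whole.

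**Figure D1:**
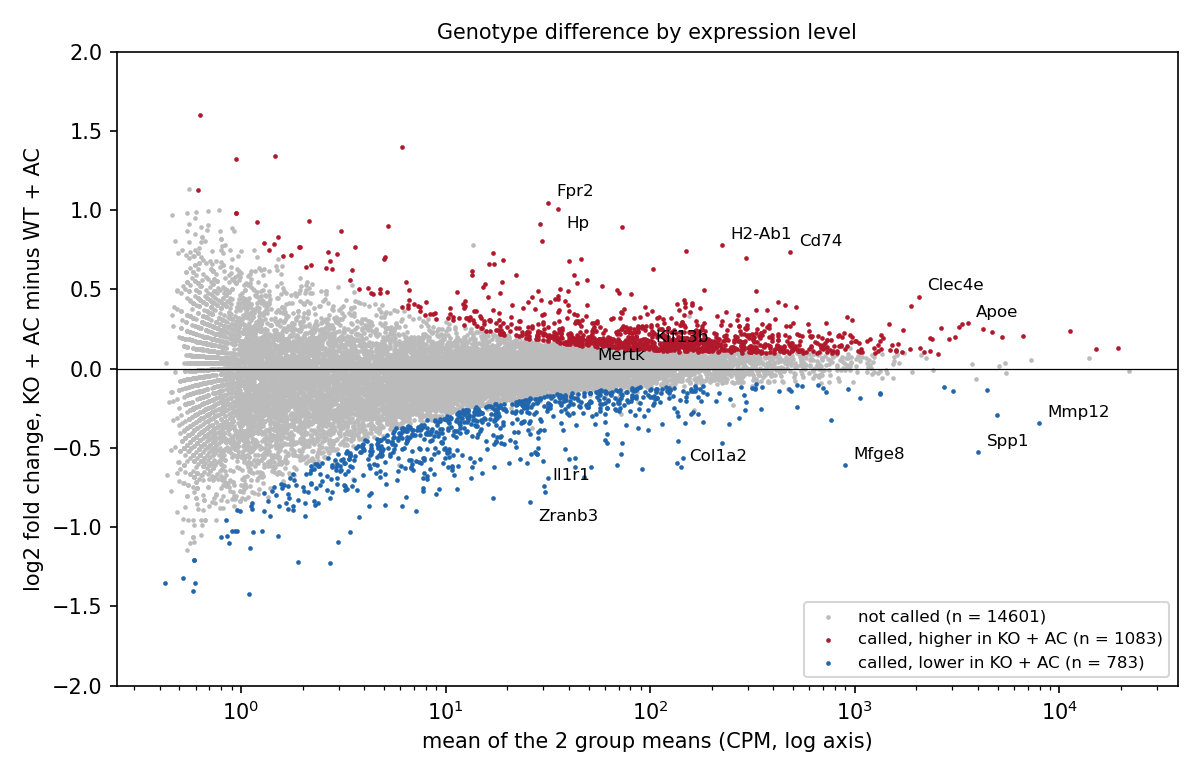
Each point is 1 of the 16467 genes tested, with its mean level in CPM (log axis) against its log2 difference, KO + AC minus WT + AC. The 1083 red genes were called higher and the 783 blue genes called lower, and red points become more frequent to the right, among abundant genes.

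The split between rises and falls depended on the scaling, and abundant genes were more often higher and scarce genes more often lower. Rises made up 58% of calls with the main scaling, 64% with DESeq2 size factors (1261 higher, 708 lower), 72.9% after a correction for length and GC content (1772 and 659), 71.5% with DESeq2 (872 and 348) and 23.7% when libraries were scaled on genes of at least 100 CPM (525 and 1686). That last scaling, added after the data were seen, lowered all log2 values by 0.062 and is called scaling on abundant genes below. A joint fit with the 6 libraries without apoptotic cells, which varied more between replicates (coefficient 0.117), called 157 genes in all and ended 101 of the 153 calls of genes named here that it could fit. Rises under 0.062 with the main scaling therefore turn into falls with that scaling.

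The genes of MHC class II presentation moved together and further than any other pathway list of at least 10 tested members. Of the 10 tested members, 8 rose and 0 fell, with a median log2 of 0.38 against -0.02 over all genes. All 12 list members summed to 8761, 8682 and 8831 CPM in KO + AC and 7399, 7505 and 7539 CPM in WT + AC. That sum includes the protease gene Ctss and the reductase gene Ifi30, so it is not the level of the class II chains alone. H2-Ab1, the class II A beta chain (GRCm38 chromosome 17, 34257689 to 34269419, plus strand), had 294, 274 and 279.5 CPM in the libraries labelled KO + AC and 166, 161 and 166 CPM in WT + AC, 1.72-fold higher (log2 0.78, SE 0.036, adjusted p = 3.83e-22). Every KO + AC library stood far above every WT + AC library.

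Promoters of class II genes share an X box, bound by the RFX complex, and a Y box, an inverted CCAAT motif bound by NF-Y, and CIITA acts through both. RefSeq windows of 300 bases around gene starts (250 before and 50 after, GRCm38.p6) were matched for 9 of the 12 list members, with 2 windows for H2-DMa and 10 in all. They are printed for 3 members that rose, H2-Aa (chr17:34287774-34288073, minus strand), H2-Eb1 (chr17:34305617-34305916, plus strand) and H2-DMb1 (chr17:34152941-34153240, plus strand), to show the paired boxes, with capitals for each match to CTNGNAAC, the core of the X box as searched, and to ATTGG, the Y box (CCAAT on the other strand):
H2-Aa: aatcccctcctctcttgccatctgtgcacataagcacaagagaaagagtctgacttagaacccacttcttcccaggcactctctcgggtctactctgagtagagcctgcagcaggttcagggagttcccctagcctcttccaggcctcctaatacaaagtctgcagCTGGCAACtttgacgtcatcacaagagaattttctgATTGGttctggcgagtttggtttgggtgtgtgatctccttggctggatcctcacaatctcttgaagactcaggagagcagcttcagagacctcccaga
H2-Eb1: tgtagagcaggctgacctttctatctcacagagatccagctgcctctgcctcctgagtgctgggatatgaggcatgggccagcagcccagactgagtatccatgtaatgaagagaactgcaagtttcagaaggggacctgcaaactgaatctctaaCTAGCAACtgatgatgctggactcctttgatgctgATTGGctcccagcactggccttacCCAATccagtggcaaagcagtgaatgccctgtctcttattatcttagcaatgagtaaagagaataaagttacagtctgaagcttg
H2-DMb1: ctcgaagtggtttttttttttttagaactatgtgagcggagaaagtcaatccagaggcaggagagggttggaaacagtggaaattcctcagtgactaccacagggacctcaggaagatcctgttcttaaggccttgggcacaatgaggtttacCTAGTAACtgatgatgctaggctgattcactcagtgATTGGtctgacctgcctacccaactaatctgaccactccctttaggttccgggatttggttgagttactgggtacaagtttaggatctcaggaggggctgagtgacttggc
Both strands were searched, and the letters were chosen with these promoters in view. CTNGNAAC stood in 13.2% of 32851 windows and ATTGG in 37.4%, against 4 and 7 of 10 class II windows. A CTNGNAAC followed by ATTGG on the same strand within 40 bases stood in 0.438% of all windows and in 4 of the 10, those of H2-Aa, H2-Eb1, H2-DMb1 and H2-Ob, with 28, 27, 28 and 25 bases between them. H2-Ob, a subunit of the inhibitor DO, was not called (log2 0.078). Conversely, H2-DMa and Ctss were called higher (log2 0.40 and 0.20) with no pair in their windows. The pair and the call thus did not coincide in every member. No window was matched for H2-Ab1, Cd74 or Ciita. A match is a description of letters, not a measured binding site.

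H2-Aa, the A alpha chain (GRCm38 chromosome 17, 34282744 to 34287823, minus strand), had 379, 356 and 356 CPM in the libraries labelled KO + AC and 232, 211 and 228 CPM in WT + AC (log2 0.70, SE 0.037, adjusted p = 2.84e-20). H2-Eb1, the E beta chain (GRCm38 chromosome 17, 34305867 to 34316674, plus strand), had 195, 185 and 180.1 CPM in KO + AC and 108, 113 and 114 CPM in WT + AC (log2 0.74, SE 0.038, adjusted p = 2.32e-20). Cd74, the invariant chain that fills the class II groove until it reaches the lysosome, had 625, 585 and 604 CPM in KO + AC and 375, 348 and 368 CPM in WT + AC (log2 0.73, SE 0.035, adjusted p = 9.04e-22). In these genes, as in H2-Ab1, the lowest KO + AC library was well above the highest WT + AC library, as drawn in the plot of levels by library. The chaperone genes H2-DMa and H2-DMb1, whose products load peptides onto class II, rose less (0.40 and 0.37). Ciita, the coactivator, had 12.8, 10.8 and 10.5 CPM in KO + AC and 8.78, 8.33 and 10.3 CPM in WT + AC (log2 0.32, SE 0.10, adjusted p = 0.0307). Its call ended without library 1 of KO + AC (adjusted p = 0.272), 1 of WT + AC (0.109) or 2 of WT + AC (0.165). It also ended with DESeq2 (0.115), with scaling on abundant genes (0.0895) and in the joint fit (0.341). Ctss, the protease that trims the invariant chain, rose by 0.20, and Ifi30, a lysosomal thiol reductase, was not called (log2 0.062, adjusted p = 0.287). DESeq2 called 7 of the members higher, scaling on abundant genes 7, and the joint fit 4.

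**Figure D2:**
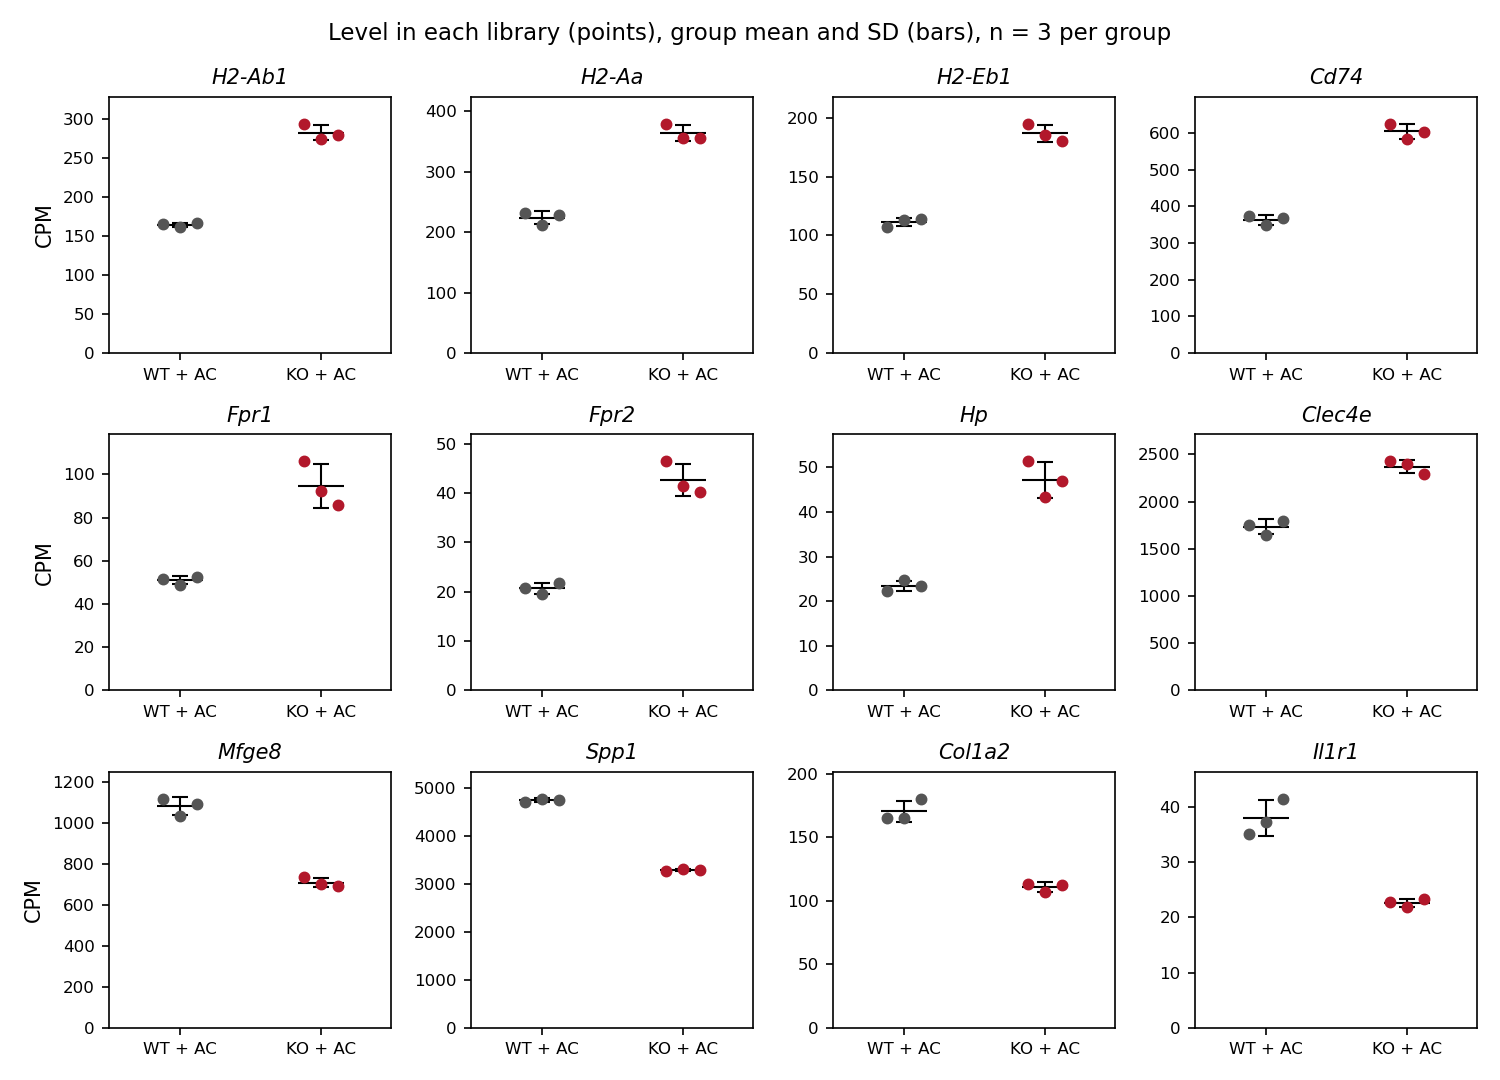
CPM in each of the 3 WT + AC (grey) and 3 KO + AC (red) libraries for 12 genes, with the group mean and SD as black bars and each axis starting at 0. The groups are apart in every panel, as the rule that picked these genes required. Of them 8 are higher in KO + AC, and Mfge8, Spp1, Col1a2 and Il1r1 are lower.

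Class II is also made by B cells and dendritic cells. The 8 B cell markers summed to 66.8, 63.8 and 61.1 CPM in KO + AC and 69.4, 60.9 and 61.2 CPM in WT + AC, and 0 of 7 tested members were called by edgeR, 1 at an unadjusted p under 0.05 and 0 by DESeq2. The 10 dendritic cell markers summed to 18.1, 17.03 and 19.3 CPM in KO + AC and 19.2, 18.99 and 18.02 CPM in WT + AC, with 0 of 6 called by either tool and 0 at an unadjusted p under 0.05. Both sums overlapped between the groups.

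The MHC class I presentation genes that were called rose in smaller steps. Of 17 tested members 10 rose and 0 fell, with a median log2 of 0.17. H2-K1, a classical class I heavy chain, had 1668, 1569.7 and 1607 CPM in the libraries labelled KO + AC and 1349.8, 1299 and 1344 CPM in WT + AC (log2 0.28, SE 0.033, adjusted p = 9.06e-09). H2-D1, the other classical chain, had 4696, 4527 and 4546 CPM in KO + AC and 3901, 3721 and 3960.2 CPM in WT + AC (log2 0.25, SE 0.033, adjusted p = 1.65e-07). Both genes were higher in every KO + AC library. The light chain gene B2m rose by 0.19, and the peptide pump and its partner, Tap1 and Tapbp, by 0.23 and 0.25. The immunoproteasome gene Psmb10 rose by 0.22. H2-Q7, a nonclassical class I gene that was among the largest rises, had 60.1, 60.6 and 54.5 CPM in KO + AC and 42.6, 36.3 and 40.3 CPM in WT + AC (log2 0.56, SE 0.054, adjusted p = 6.49e-11), but class I genes are close copies of each other and reads may be divided among them. Scaling on abundant genes left 7 of the class I members called and the joint fit 0.

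Among costimulatory and checkpoint ligands 5 of 14 were higher and 2 lower (1 and 2 with scaling on abundant genes, 3 and 0 by DESeq2). Most of these calls rested on single libraries, with 3 higher without KO + AC 1, 2 higher without KO + AC 2, WT + AC 2 or WT + AC 3, 1 lower without KO + AC 1 or WT + AC 3 and 0 lower without KO + AC 2 or WT + AC 1. Icosl, the ligand of the T cell costimulator ICOS, had 82.7, 83.4 and 77.6 CPM in KO + AC and 63.4, 64.8 and 63.3 CPM in WT + AC (log2 0.35, SE 0.043, adjusted p = 3.43e-08), with no overlap. Log2 values over the list ran from -0.31 to 0.35.

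Of 16 tested receptors by which macrophages sense attractants 8 were higher and 0 lower, with a median log2 of 0.12 (5 and 0 with scaling on abundant genes, and 5 higher without WT + AC 2 or WT + AC 3). The formyl peptide receptors, which sense bacterial and mitochondrial peptides, changed most. Fpr2 (GRCm38 chromosome 17, 17887824 to 17893952, plus strand) had 46.4, 41.5 and 40.3 CPM in the libraries labelled KO + AC and 20.8, 19.5 and 21.8 CPM in WT + AC, 2.07-fold higher (log2 1.05, SE 0.063, adjusted p = 6.01e-18). Fpr1 (GRCm38 chromosome 17, 17876471 to 17883940, minus strand) had 106, 92.2 and 85.8 CPM in KO + AC and 51.4, 48.95 and 52.6 CPM in WT + AC (log2 0.89, SE 0.063, adjusted p = 1.28e-08). For both genes the lowest KO + AC value was above 1.5 times the highest WT + AC value. Cmklr1, the chemerin receptor, had 269.8, 261 and 260.0 CPM in KO + AC and 218, 194 and 205 CPM in WT + AC (log2 0.36, SE 0.037, adjusted p = 2.16e-10). Other called members were Ccrl2, which binds chemerin (0.18), and Ptafr, the receptor for platelet activating factor (0.14).

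In the Ms4a family of membrane proteins 4 of 9 genes were higher and 0 lower, a count that scaling on abundant genes left at 4 and 0. Ms4a4a, the member named for its place among the largest rises, had 41.4, 38.4 and 33.4 CPM in the libraries labelled KO + AC and 22.3, 20.4 and 22.2 CPM in WT + AC (log2 0.80, SE 0.067, adjusted p = 9.91e-13). Ms4a6c rose by 0.49, Ms4a7 by 0.29 and Ms4a6d by 0.24. Ms4a genes lie in a cluster of related copies, so counts of close copies are uncertain.

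C-type lectin receptors went both ways, with 6 of 15 higher and 2 lower (5 and 4 with scaling on abundant genes, 5 and 1 by DESeq2, and 1 lower without KO + AC 1, KO + AC 3, WT + AC 1 or WT + AC 2). Clec4e, which encodes Mincle, a sensor of mycobacterial glycolipids and of dead cells, had 2425, 2401 and 2288 CPM in the libraries labelled KO + AC and 1752, 1643 and 1798 CPM in WT + AC (log2 0.45, SE 0.035, adjusted p = 2.14e-14). Clec4a1, a lectin of the same gene cluster, had 57.5, 56.4 and 55.99 CPM in KO + AC and 35.02, 33.8 and 36.6 CPM in WT + AC (log2 0.69, SE 0.050, adjusted p = 5.34e-15). Both genes were higher in all 3 KO + AC libraries. Clec4a3 rose by 0.40 and Clec4d, the partner of Mincle, by 0.22, whereas Clec7a, the beta-glucan receptor Dectin-1, fell slightly (log2 -0.13, adjusted p = 0.00509).

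Among Toll-like and other pattern receptors 10 of 22 were higher and 1 lower (6 and 1 with scaling on abundant genes, and 6 higher without KO + AC 1 and 5 higher without WT + AC 2). Cd14, which hands lipopolysaccharide to TLR4, had 1045, 978 and 1039.9 CPM in KO + AC and 837, 805 and 807 CPM in WT + AC (log2 0.32, SE 0.033, adjusted p = 2.51e-10). Tlr7, the endosomal receptor for single-stranded RNA, had 182, 167 and 158 CPM in KO + AC and 134, 116 and 129.8 CPM in WT + AC (log2 0.41, SE 0.055, adjusted p = 6.46e-05). Tlr2, which senses lipoproteins, rose by 0.27, and Nod2, a sensor of muramyl dipeptide, by 0.26. The 1 member called lower was Sting1, the adaptor of cytosolic DNA sensing, at 20.8 ± 1.83 against 26.3 ± 0.298 CPM (log2 -0.34, SE 0.068, adjusted p = 0.000312). Fc receptors had 2 of 7 higher, Fcgr2b, the inhibitory IgG receptor (0.21), and Fcer1g, the shared signalling chain (0.14), and 0 lower. The joint fit ended both calls (adjusted p = 0.262 and 0.73), and scaling on abundant genes ended that of Fcer1g (0.05).

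The cytokines and NF-kB targets that were called were all higher. Of 25 tested members 15 rose and 0 fell, and the median log2 was 0.18 (10 and 1 with scaling on abundant genes, 15 and 0 by DESeq2). Several of the called genes encode NF-kB subunits or their feedback inhibitors. Nfkb1, the p50 subunit, had 665, 640.5 and 637 CPM in the libraries labelled KO + AC and 549, 501 and 549 CPM in WT + AC (log2 0.28, SE 0.035, adjusted p = 3.43e-08). Traf1, a signalling adaptor, had 226, 214 and 202 CPM in KO + AC and 154, 145 and 157 CPM in WT + AC (log2 0.49, SE 0.039, adjusted p = 1.94e-13). Il12a, the p35 subunit of interleukin 12, had 22.8, 22.4 and 22.1 CPM in KO + AC and 14.2, 13.6 and 18.3 CPM in WT + AC (log2 0.55, SE 0.082, adjusted p = 2.73e-06). No KO + AC library overlapped a WT + AC library for these genes. Nfkb2 rose by 0.22, Nfkbiz, a nuclear IkB protein, by 0.20, Sod2 by 0.24 and Il1b, interleukin 1 beta, by 0.21. The classical products Tnf (log2 0.067, adjusted p = 0.294) and Il6 (0.14, 0.707) were not called. The joint fit left 2 of the members called.

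Chemokines were divided, with 5 of 19 higher and 7 lower (2 and 7 with scaling on abundant genes, 3 and 5 by DESeq2, and 8 higher without KO + AC 3 and 3 higher without KO + AC 2, WT + AC 2 or WT + AC 3). Ccl2, the main attractant of monocytes, had 115, 118 and 117 CPM in the libraries labelled KO + AC and 176, 168 and 171 CPM in WT + AC (log2 -0.56, SE 0.037, adjusted p = 1.36e-16). Ccl7, a close relative, had 22.5, 23.1 and 22.97 CPM in KO + AC and 31.3, 34.1 and 34.2 CPM in WT + AC (log2 -0.54, SE 0.062, adjusted p = 4.6e-09). These fell in every KO + AC library. Ccl5, an attractant of T cells, had 43.04, 39.5 and 39.1 CPM in KO + AC and 32.03, 28.01 and 29.9 CPM in WT + AC (log2 0.44, SE 0.058, adjusted p = 1.56e-07) and Cxcl16, the membrane-bound ligand of CXCR6, rose by 0.27. Ccl6 fell by 0.26 and Cxcl14 by 0.42 on the log2 scale.

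In the TNF superfamily 5 of 18 members were higher and 0 lower (3 and 1 with scaling on abundant genes, and 3 higher without WT + AC 3). Tnfsf15, the cytokine TL1A (GRCm38 chromosome 4, 63727084 to 63745113, minus strand), had 40.01, 40.7 and 32.4 CPM in the libraries labelled KO + AC and 21.1, 18.9 and 20.2 CPM in WT + AC, 1.88-fold higher (log2 0.91, SE 0.073, adjusted p = 1.65e-11). Tnfrsf1b, which encodes a TNF receptor, had 3586, 3556 and 3474 CPM in KO + AC and 3005, 2864 and 2981 CPM in WT + AC (log2 0.26, SE 0.033, adjusted p = 3.45e-08), and Tnfrsf14, the receptor HVEM, rose by 0.44. Among interferon-stimulated genes 9 of 33 were higher and 0 lower. By p-value the first were Irf1, a transcription factor (301 ± 6.48 against 238 ± 10.2 CPM, log2 0.34, adjusted p = 3.32e-10), and Gbp5, a guanylate-binding protein (0.26). Scaling on abundant genes left 3 and 1 and DESeq2 4 and 0, and leaving out 1 library gave 5 higher without KO + AC 1 or KO + AC 2, 4 higher without WT + AC 1 or WT + AC 2 and 1 lower without WT + AC 1, so most of those calls depended on the scaling, the tool or single libraries. Ifi205, an interferon-inducible gene with close copies beside it, had 127, 129 and 121 CPM in KO + AC and 80.98, 77.2 and 85.9 CPM in WT + AC (log2 0.63, SE 0.041, adjusted p = 1.4e-16).

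Immediate early and feedback genes went in both directions, with 8 of 30 higher and 3 lower (5 and 4 with scaling on abundant genes, and 4 higher without KO + AC 1). Klf2, a transcription factor that restrains macrophage activation, had 45.2 ± 0.959 against 34.3 ± 1.40 CPM (log2 0.40, SE 0.053, adjusted p = 1.26e-07). Dusp6, a phosphatase that damps ERK signalling, had 15.2 ± 0.573 against 20.5 ± 0.691 CPM (log2 -0.43, SE 0.075, adjusted p = 2.94e-05). Myc fell by 0.22 on the log2 scale, and Egr1 was not called (log2 -0.094). Acod1, the enzyme that makes itaconate in activated macrophages, was among the largest rises of abundant genes, with 2158, 2098 and 2141 CPM in KO + AC and 1635, 1503 and 1728 CPM in WT + AC (log2 0.39, SE 0.037, adjusted p = 8.92e-11), and Mapkapk2, a kinase that stabilises cytokine messages, rose by 0.31.

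The efferocytosis receptors and bridging proteins, the machinery the co-culture engages, had 7 of 30 tested members higher, 5 lower and 18 not called, with a median log2 of -0.00038 (6 and 7 with scaling on abundant genes). Mfge8, which bridges phosphatidylserine to integrins (GRCm38 chromosome 7, 79133768 to 79149060, minus strand), had 734, 699.6 and 692 CPM in the libraries labelled KO + AC and 1117, 1032 and 1093 CPM in WT + AC, 1.52-fold lower in KO + AC (log2 -0.61, SE 0.034, adjusted p = 4.8e-19). The lowest WT + AC library was above the highest KO + AC library. Marco, a scavenger receptor, had 56.4, 46.3 and 49.5 CPM in KO + AC and 35.4, 32.5 and 33.1 CPM in WT + AC (log2 0.59, SE 0.059, adjusted p = 7.92e-10). Thbs1, thrombospondin 1, which links dying cells to CD36, had 533, 498 and 518 CPM in KO + AC and 409, 379 and 386 CPM in WT + AC (log2 0.40, SE 0.035, adjusted p = 1.6e-12). These moved up in all 3 libraries. Stab1, a phosphatidylserine receptor, rose by 0.27, and Tgm2, a transglutaminase that assists integrin-dependent uptake, by 0.23. Axl, a TAM family receptor like MERTK, rose by 0.19 (adjusted p = 0.00013). Tyro3 (log2 -0.11, adjusted p = 0.717) and the TAM ligands Gas6 (0.064, 0.731) and Pros1 (-0.041, 0.758) were not called. Cd300ld and Cd300lb, lipid-binding receptors, fell by 0.29 and 0.18 on the log2 scale. Anxa1, annexin A1, which is also a ligand of the formyl peptide receptors, had 1261, 1292 and 1228 CPM in KO + AC and 1373, 1389 and 1447 CPM in WT + AC (log2 -0.15, SE 0.033, adjusted p = 0.000679). The joint fit left 2 higher and 1 lower.

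Genes of engulfment and LC3-associated phagocytosis had 7 of 31 higher and 0 lower, but 1 and 3 with scaling on abundant genes, 4 and 0 by DESeq2 and 13 and 0 after the correction for length and GC content. Single libraries moved the count as well, with 3 higher without KO + AC 2, WT + AC 2 or WT + AC 3 and 1 higher without KO + AC 1. Cybb, the catalytic subunit of the phagocyte oxidase, had the largest difference among those called, with 2894, 2918 and 2759 CPM in KO + AC and 2442, 2299.7 and 2445 CPM in WT + AC (log2 0.25, SE 0.034, adjusted p = 1.42e-07). The cytoskeletal regulators Elmo1 (log2 0.088) and Dock2 (-0.040) were not called. Among complement genes 5 of 17 were higher and 1 lower (5 and 3 with scaling on abundant genes, and 2 lower without KO + AC 1). The 3 chains of C1q, which tags dying cells, rose together, by 0.30 for C1qa, 0.25 for C1qb and 0.20 for C1qc. C3 had 164 ± 7.25 against 129.6 ± 4.70 CPM (log2 0.34, SE 0.039, adjusted p = 4.29e-09). Itgax, the alpha chain of complement receptor 4, fell, with 686, 709 and 652 CPM in KO + AC and 862, 826 and 870.4 CPM in WT + AC (log2 -0.32, SE 0.034, adjusted p = 5.2e-10).

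Lysosomal proteases and hydrolases showed 9 rises and 2 falls among 29 members, 4 and 8 with scaling on abundant genes and 15 and 2 after the correction for length and GC content, so the list as a whole had no stable direction. The falls were the larger changes. Ctsk, the collagen-degrading cathepsin K, had 184, 190.4 and 193 CPM in the libraries labelled KO + AC and 274, 241 and 271 CPM in WT + AC (log2 -0.47, SE 0.039, adjusted p = 5.66e-12). Ctsl, cathepsin L, had 4501, 4426 and 4472 CPM in KO + AC and 5519.9, 5315 and 5579 CPM in WT + AC (log2 -0.29, SE 0.033, adjusted p = 2.29e-09). Both fell in every KO + AC library. Ctsh rose by 0.21 and Ctsc by 0.16. Lysosomal membrane and proton pump genes had 8 of 22 higher and 1 lower, which became 2 and 2, and all called members lay between -0.12 and 0.18. Leaving out 1 library gave 5 higher without KO + AC 1 or KO + AC 2, 4 higher without WT + AC 2 or WT + AC 3 and 0 lower without WT + AC 1.

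Cholesterol handling after engulfment is driven by LXR receptors. Of the 14 LXR targets 5 rose and 2 fell (4 and 3 with scaling on abundant genes, 5 and 1 by DESeq2, 8 and 2 after the correction for length and GC content, and 1 lower without KO + AC 1, KO + AC 2 or WT + AC 2). Apoe, the apolipoprotein that carries cholesterol out of macrophages (GRCm38 chromosome 7, 19696109 to 19699188, minus strand), had 4134, 3729 and 3925 CPM in the libraries labelled KO + AC and 3226, 3121 and 3314 CPM in WT + AC (log2 0.29, SE 0.035, adjusted p = 2.39e-08). Mylip, the ligase that degrades the LDL receptor, had 43.3, 45.2 and 43.3 CPM in KO + AC and 32.7, 31.8 and 33.6 CPM in WT + AC (log2 0.43, SE 0.053, adjusted p = 3.57e-08). Pltp and Smpdl3a rose by 0.27 and 0.26. Abca1, the cholesterol efflux pump, was at 0.14, and its partner Abcg1 was not called (log2 -0.065). The Abca1 call ended without library 1 of KO + AC (adjusted p = 0.053), with scaling on abundant genes (0.0748) and in the joint fit (0.669). The desaturase gene Scd2 fell by 0.35 on the log2 scale. In sterol synthesis 1 of 20 genes were higher and 2 lower (0 and 7, and 2 higher without KO + AC 3, 0 higher without KO + AC 1, KO + AC 2 or WT + AC 2 and 1 lower without WT + AC 2), with Sqle, squalene epoxidase, at -0.22.

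Matrix genes had the largest share of falls among the lists. Of 36 collagens and matrix genes tested 22 fell and 1 rose, with a median log2 of -0.36 (24 and 1 with scaling on abundant genes, 19 and 1 by DESeq2, 8 and 0 in the joint fit, and 2 higher without WT + AC 3). Col1a2, a chain of type I collagen (GRCm38 chromosome 6, 4504814 to 4541544, plus strand), had 113, 107 and 113 CPM in the libraries labelled KO + AC and 165, 166 and 180.2 CPM in WT + AC, 1.54-fold lower (log2 -0.62, SE 0.039, adjusted p = 3.81e-17). Col6a1, of type VI collagen, had 37.7, 34.8 and 37.1 CPM in KO + AC and 56.5, 58.9 and 60.7 CPM in WT + AC (log2 -0.69, SE 0.050, adjusted p = 6.95e-15). Sparc, a collagen-binding glycoprotein, had 75.9, 68.1 and 70.4 CPM in KO + AC and 106, 113 and 113 CPM in WT + AC (log2 -0.63, SE 0.043, adjusted p = 3.68e-16). No library of one group reached the other for these genes. Col1a1, Col3a1 and Col6a3 were -0.59, -0.60 and -0.59, and Serpinh1, the collagen chaperone, was -0.61, each called and without overlap. The 1 member that rose was Mmp14, a membrane-anchored protease that cleaves collagen, with 837, 809 and 747 CPM in KO + AC and 662, 619 and 675 CPM in WT + AC (log2 0.29, SE 0.037, adjusted p = 3.25e-07).

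Fibroblast and stromal markers, some of which are these same genes, moved with the matrix list. All 12 of them summed to 322, 307 and 334 CPM in KO + AC and 462, 480.2 and 508 CPM in WT + AC, 6 of 11 tested members fell and none had 0 counts in all libraries. Pdgfra, a receptor of mesenchymal cells, had 24.1, 23.1 and 25.3 CPM in KO + AC and 37.4, 37.3 and 42.3 CPM in WT + AC (log2 -0.69, SE 0.061, adjusted p = 3.64e-12), whereas Pdgfrb (log2 0.043) and Acta2 (0.041) were not called. Epithelial and mesothelial markers summed to 16.9, 16.5 and 17.1 CPM in KO + AC and 22.9, 23.5 and 23.9 CPM in WT + AC, and Wt1, a mesothelial transcription factor, was the 1 of 7 called (log2 -0.76, adjusted p = 3.94e-07). The part of such cells in the matrix result was not tested, and in bulk RNA fewer cells of a type and less RNA per cell cannot be told apart.

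Cadherins and junction genes had 7 of 18 lower and 1 higher (median log2 -0.29, 7 and 0 with scaling on abundant genes, and 0 higher without KO + AC 1, KO + AC 2 or WT + AC 2). Cdh2, N-cadherin, had 11.6 ± 0.306 against 18.4 ± 0.653 CPM (log2 -0.66, SE 0.081, adjusted p = 2.79e-08), and Cdh3 and Cdh1 fell by 1.03 and 0.86 on the log2 scale from low levels. Of the imprinted genes 3 of 17 fell and 0 rose (1 higher without KO + AC 3). They were Grb10, an inhibitor of growth factor signalling (18.7 ± 1.62 against 27.7 ± 1.81 CPM, log2 -0.57, adjusted p = 3.19e-08), and the maternally expressed noncoding RNAs Meg3 (-0.70) and Rian (-0.87). Smooth muscle contractile genes had 3 of 12 lower, led by Cald1 (log2 -0.45, adjusted p = 9.61e-11), and 1 higher, Vcl, which encodes the adhesion protein vinculin (log2 0.29, adjusted p = 4.55e-07). Growth factors had 2 of 23 higher and 4 lower (0 and 5 with scaling on abundant genes, and 1 higher without KO + AC 1, KO + AC 2, WT + AC 1 or WT + AC 3). Csf1, the growth factor that maintains macrophages, had 68.5, 65.00 and 67.4 CPM in KO + AC and 85.4, 85.4 and 86.4 CPM in WT + AC (log2 -0.36, SE 0.042, adjusted p = 9.28e-09).

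The cell cycle genes that were called were lower, with 1 exception. Of 31 mitosis genes 18 fell and 1 rose (median log2 -0.26), and of 33 DNA replication genes 9 fell and 0 rose (median -0.17). Ncapg2, a condensin subunit, had 21.2, 21.7 and 27.1 CPM in the libraries labelled KO + AC and 31.97, 32.5 and 34.6 CPM in WT + AC (log2 -0.50, SE 0.070, adjusted p = 1.42e-06). Kif11, the spindle motor, had 8.08, 8.64 and 8.28 CPM in KO + AC and 12.00, 12.4 and 11.3 CPM in WT + AC (log2 -0.52, SE 0.097, adjusted p = 0.000108). Top2a, which untangles chromosomes, had 61.2, 61.6 and 63.9 CPM in KO + AC and 70.3, 79.4 and 73.7 CPM in WT + AC (log2 -0.26, SE 0.046, adjusted p = 4.21e-05). The exception was Mki67, the proliferation antigen, with 97.6, 100.4 and 98.2 CPM in KO + AC and 77.9, 76.00 and 82.7 CPM in WT + AC (log2 0.32, SE 0.041, adjusted p = 5.89e-08), so the member most used as a marker moved against the rest. Mcm5 and Mcm4, of the replicative helicase, were -0.28 and -0.24, and Rrm1, which supplies nucleotides, was -0.22. Scaling on abundant genes left 21 mitosis and 16 replication genes lower, DESeq2 11 and 5, and the joint fit 0 and 0.

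T cell markers were summed as well, since the apoptotic cells were a T cell line. All 20 summed to 147, 149.5 and 163 CPM in KO + AC and 164, 186 and 171 CPM in WT + AC, with 1 KO + AC library close to the lowest WT + AC library. Of 15 tested members 2 were called, both lower, to be read against the 4.75% called lower over all genes. The median log2 of the 15 was -0.14, against -0.02 over all genes, and 1 of them was above 0. The 2 called were Lck, the proximal T cell receptor kinase (log2 -0.27, adjusted p = 0.00581), and Lat, its adaptor (log2 -0.28, adjusted p = 0.00705). None of the list had 0 counts in all libraries. The Lck call ended without library 2 of KO + AC (adjusted p = 0.112) or 2 of WT + AC (0.0619) and the Lat call with DESeq2 (0.0632). Both ended in the joint fit (0.476 for Lck and 0.493 for Lat). The part of T cell RNA in the cell cycle result was not tested.

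Macrophage identity genes rose where they were called, with 9 of 20 higher and 0 lower (median log2 0.099, 6 and 0 with scaling on abundant genes). Over all genes, 28.4% of those at 100 to 500 CPM and 40.4% of those at 500 CPM and over were called higher. Lyz2, lysozyme, which has a close copy, had 12153, 12141 and 12203 CPM in KO + AC and 10546, 9873 and 10530.1 CPM in WT + AC (log2 0.24, SE 0.034, adjusted p = 7.35e-07). Adgre1, which encodes F4/80, had 728, 704 and 699 CPM in KO + AC and 613, 613 and 622 CPM in WT + AC (log2 0.21, SE 0.032, adjusted p = 5.64e-06), and Csf1r, the receptor of CSF1, rose by 0.20. Spi1 (log2 0.074), which encodes a transcription factor of the lineage, was not called. Monocyte markers were 2 higher and 1 lower of 11. Hp, haptoglobin, which binds free haemoglobin (GRCm38 chromosome 8, 109575128 to 109579172, minus strand), had 51.3, 43.3 and 46.8 CPM in the libraries labelled KO + AC and 22.4, 24.6 and 23.4 CPM in WT + AC, 2.01-fold higher (log2 1.01, SE 0.061, adjusted p = 1.07e-17), and F13a1, a subunit of factor XIII, rose by 0.48. Chil3, a chitinase-like protein, had 33.4, 33.7 and 34.5 CPM in KO + AC and 53.3, 50.4 and 52.4 CPM in WT + AC (log2 -0.62, SE 0.051, adjusted p = 3.29e-13) and moved the other way in all 3 libraries.

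Alternative activation genes had 3 of 17 higher and 4 lower (0 and 6 with scaling on abundant genes, 1 and 2 by DESeq2). With 1 library left out the counts were 1 higher without KO + AC 1, KO + AC 2 or WT + AC 1, 0 higher without WT + AC 3 and 2 lower without KO + AC 2. Arg1, arginase 1, had 37.96 ± 0.408 against 46.03 ± 1.16 CPM (log2 -0.28, SE 0.051, adjusted p = 7.34e-05), and Mrc1, the mannose receptor CD206, was not called (log2 -0.042). Genes of lipid-associated macrophages were 3 higher and 4 lower of 18 (3 and 8). Spp1, osteopontin (GRCm38 chromosome 5, 104435118 to 104441050, plus strand), had 3277, 3309 and 3286 CPM in the libraries labelled KO + AC and 4701, 4773 and 4762 CPM in WT + AC, 1.44-fold lower (log2 -0.53, SE 0.032, adjusted p = 8.93e-18). Mmp12, macrophage elastase, had 7026, 7268 and 6757 CPM in KO + AC and 8942, 8761 and 9006 CPM in WT + AC (log2 -0.34, SE 0.034, adjusted p = 6.24e-11). The falls were present in every library, while Trem2, a lipid receptor, was not called (log2 0.087) and Fabp4 rose by 0.21.

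Osteoclast genes, which share CSF1 and RANK signals with macrophages, had 6 of 11 lower and 3 higher (7 and 1 with scaling on abundant genes, 3 and 2 by DESeq2, and 1 higher without KO + AC 1 or WT + AC 3). Ctsk, given above, had the smallest p of the falls, and Mmp9, gelatinase B, had 25.8 ± 1.34 against 32.3 ± 0.458 CPM (log2 -0.32, SE 0.060, adjusted p = 0.000115). Mitf, a transcription factor of the lineage, was the largest of the rises (0.23). Coagulation genes were 3 higher and 4 lower of 17 (3 and 2 by DESeq2, and 2 lower without KO + AC 2). F10, factor X, had 599, 592 and 572 CPM in KO + AC and 446, 427 and 472 CPM in WT + AC (log2 0.39, SE 0.035, adjusted p = 4.44e-12), and Serpinb2, an inhibitor of plasminogen activators, had 143 ± 4.06 against 175 ± 3.74 CPM (log2 -0.29, SE 0.037, adjusted p = 5.73e-08). Among vasoactive receptors 6 of 21 were higher and 1 lower (3 and 2), including the adenosine receptors Adora2a (0.25) and Adora2b (0.29) upward and the serotonin receptor Htr2b downward (5.00 ± 0.782 against 9.34 ± 0.736 CPM, log2 -0.90, adjusted p = 2.64e-07).

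Iron and heme genes had 5 of 18 higher and 3 lower (4 and 4 with scaling on abundant genes). After Hp the rise with the smallest p was that of Slc11a1, the phagosomal metal transporter, with 959 ± 23.3 against 819 ± 23.8 CPM (log2 0.23, SE 0.033, adjusted p = 1.11e-06). Tfrc, the transferrin receptor, fell by 0.19 and Steap3, which reduces endosomal iron, by 0.27 on the log2 scale, and Hmox1, heme oxygenase 1, was not called (log2 -0.081). NRF2 targets were 4 higher and 3 lower of 22 (1 and 8, and 2 higher without KO + AC 2). Slc7a11, the cystine importer, had 500.4, 492 and 446 CPM in KO + AC and 374, 328 and 374 CPM in WT + AC (log2 0.42, SE 0.053, adjusted p = 0.000103), which was the largest change of that list, and Prdx1, a peroxiredoxin, fell by 0.14 on the log2 scale.

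**Figure D3:**
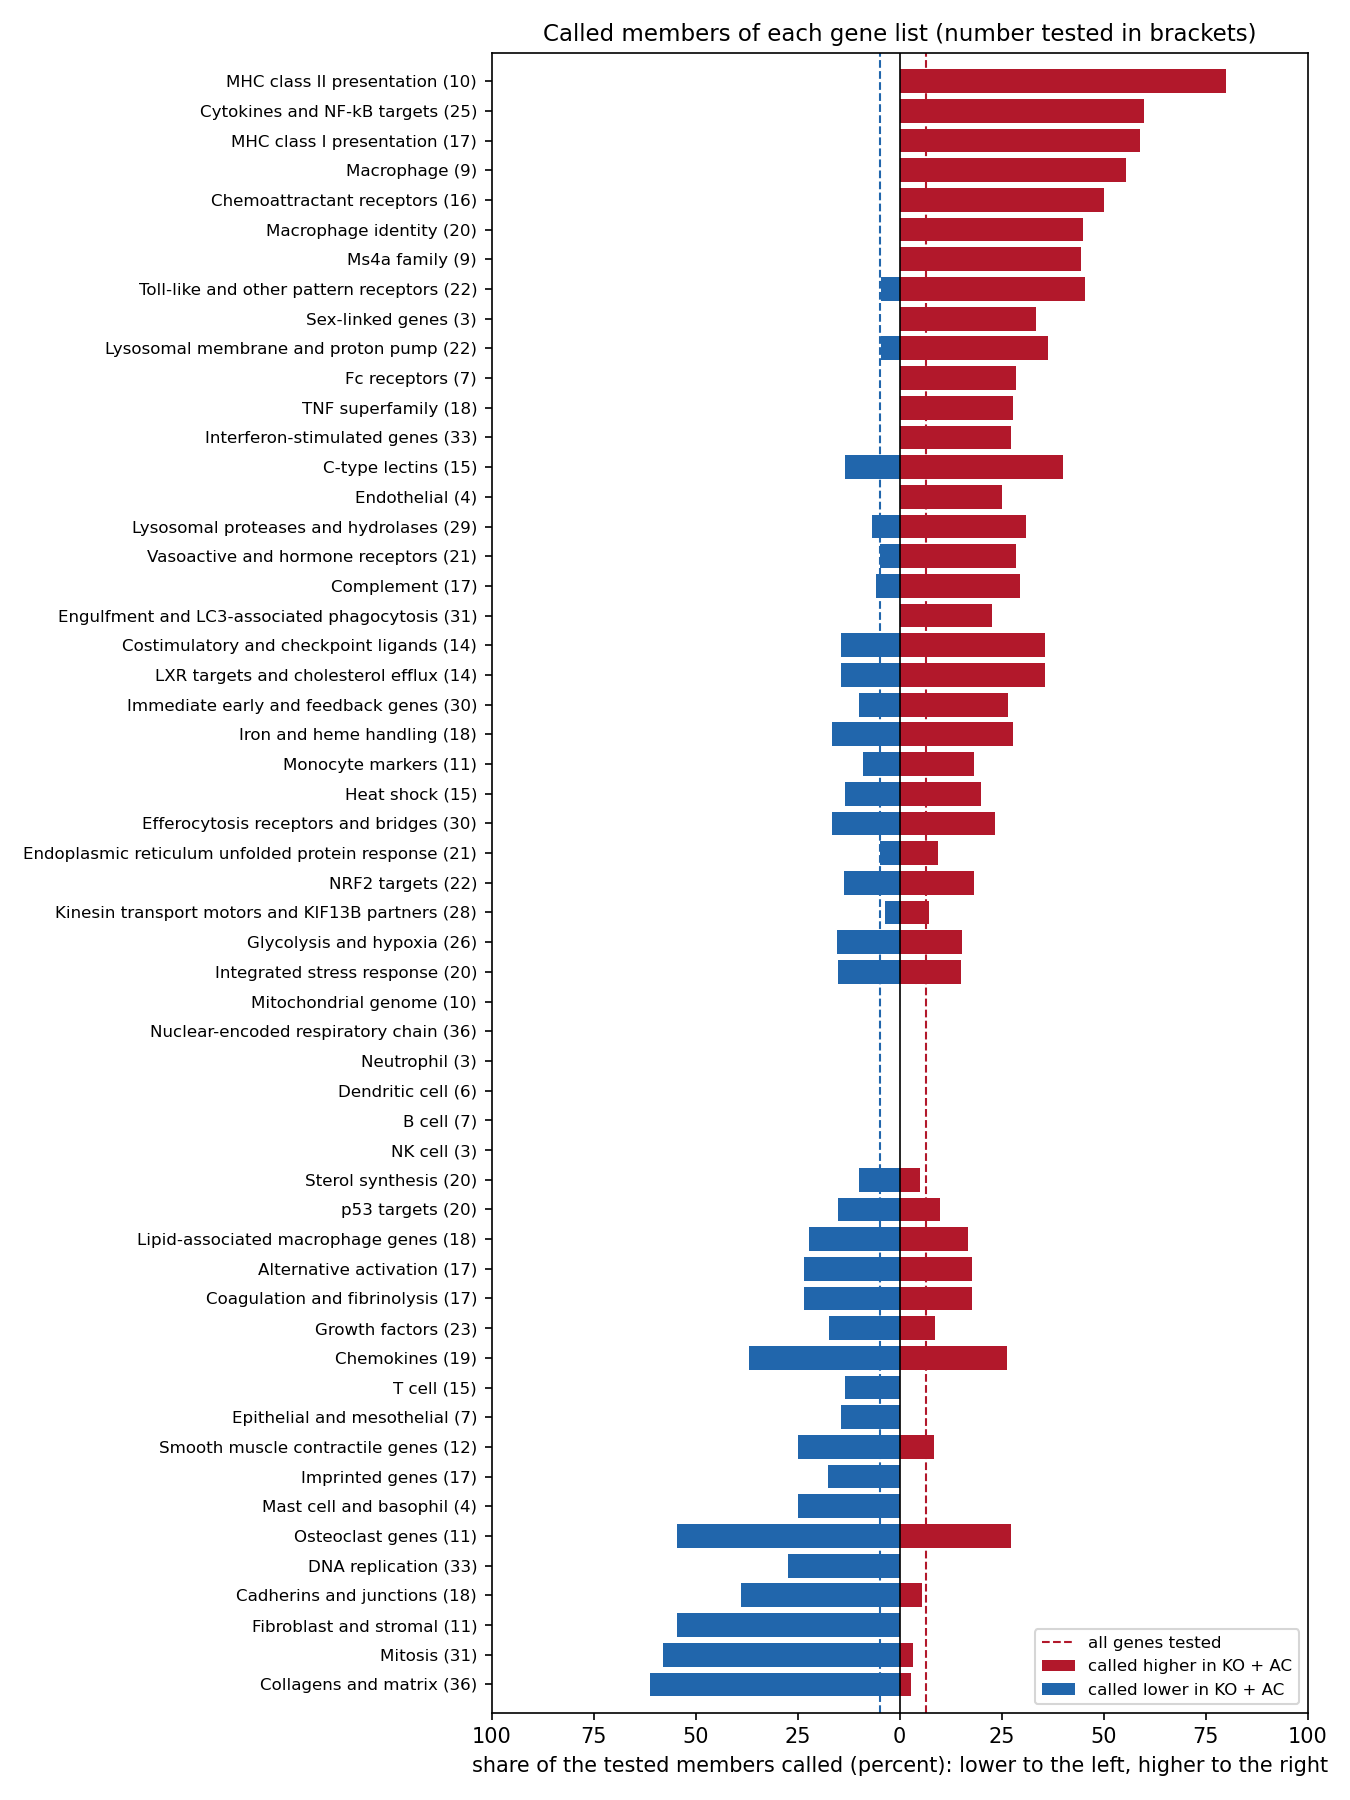
For each gene list with at least 3 tested members (number in brackets), the percentage called higher in KO + AC (red, to the right) and lower (blue, to the left), with dashed lines at the shares over all genes, 6.58% and 4.75%. MHC class II presentation reaches furthest to the right, with 8 of 10, and collagens and matrix furthest to the left, with 22 of 36. Lists are not matched for level, and 40.4% of all genes at 500 CPM and over were called higher.

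No respiratory chain gene on the lists was called. Glycolysis, integrated stress response, heat shock and p53 lists were called more often than the 11.3% over all genes, but lists were not matched for level. At 100 to 500 CPM, 28.4% of all genes were called higher and 4.58% lower. None of 36 tested nuclear-encoded respiratory chain genes was called by edgeR or by DESeq2, with 2 at an unadjusted p under 0.05, and scaling on abundant genes called 2 lower. None of 10 mitochondrially encoded protein genes was called by either tool, with 0 at an unadjusted p under 0.05. The mitochondrial ribosomal RNA genes mt-Rnr1 (log2 -0.15, adjusted p = 0.00138) and mt-Rnr2 (log2 -0.16, adjusted p = 0.000347) were called lower. Glycolysis and hypoxia genes were 4 higher and 4 lower of 26, with Hif1a at 0.20 and Pdk1 at -0.32 (3 and 2 by DESeq2, and 2 higher without KO + AC 1, WT + AC 1 or WT + AC 3 and 2 lower without KO + AC 2). The integrated stress response had 3 higher and 3 lower of 20, with Nupr1 at 0.30 and Psat1 at -0.30 (3 and 1 by DESeq2, and 1 lower without WT + AC 3). Heat shock genes had 3 and 2 of 15, with Hspa1b at 0.36. For p53 targets the counts were 2 and 3 of 20 (2 and 1 by DESeq2, and 1 higher without KO + AC 2 or WT + AC 1 and 1 lower without KO + AC 1, KO + AC 2 or WT + AC 2). Scaling on abundant genes turned the balance of these lists toward falls, with 1 and 8 for glycolysis, 2 and 9 for the integrated stress response, 2 and 7 for heat shock and 0 and 6 for p53 targets. Mast cell markers summed to 7.17, 6.60 and 7.63 CPM in KO + AC and 10.9, 9.29 and 10.7 CPM in WT + AC, and 1 of 4 tested was called lower (0 lower without KO + AC 1, KO + AC 2, WT + AC 1, WT + AC 2 or WT + AC 3). Of 3 NK cell and 3 neutrophil markers tested none was called by edgeR or DESeq2, with 0 and 1 at an unadjusted p under 0.05, no erythroid marker had enough counts to be tested, and of 4 endothelial markers Vwf, von Willebrand factor, rose by 0.22.

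Genes that the lists do not hold were among the largest changes too. Rasgrp1, an activator of RAS, had 50.8, 50.6 and 46.00 CPM in the libraries labelled KO + AC and 32.6, 26.4 and 32.95 CPM in WT + AC (log2 0.68, SE 0.063, adjusted p = 7.59e-10), and Aoah, which inactivates lipopolysaccharide, had 51.4, 52.3 and 51.6 CPM in KO + AC and 34.5, 35.4 and 36.8 CPM in WT + AC (log2 0.54, SE 0.051, adjusted p = 1.32e-11). Both rose in all 3 libraries. Il1r1, the signalling receptor of interleukin 1, had 22.8, 21.8 and 23.2 CPM in KO + AC and 34.96, 37.2 and 41.4 CPM in WT + AC (log2 -0.74, SE 0.063, adjusted p = 8.78e-13). Zranb3, a helicase that restores stalled replication forks and the largest fall at this level, had 18.5, 17.5 and 19.3 CPM in KO + AC and 32.4, 33.3 and 33.8 CPM in WT + AC (log2 -0.84, SE 0.064, adjusted p = 2.41e-14). Vsig8 (-0.78), the ubiquitin ligase gene Nedd4 (-0.62) and Myrf, which encodes a membrane-bound transcription factor (-0.58), completed the 15 largest falls with the genes given above. At a mean of 500 CPM or more, Rhob, a small GTPase of endosomes, had 477 ± 17.8 against 563 ± 17.02 CPM (log2 -0.24, SE 0.034, adjusted p = 6.83e-07) and Adam8, a sheddase, had 997 ± 26.8 against 1132 ± 9.47 CPM (log2 -0.18, SE 0.032, adjusted p = 4.08e-05).

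How often a gene was called rose with its level. Genes of 500 CPM and over were called higher in 40.4% of cases and lower in 6.5%, and those under 1 CPM in 0.257% and 0.772%. The median log2 went from -0.072 under 1 CPM to 0.074 at 500 CPM and over. Of 12920 protein-coding genes 8% were higher and 5.44% lower, and of 2347 pseudogenes 0.426% and 2.26%. The longest eighth of genes by exonic length was higher in 10.3% and lower in 6.71% of cases, the shortest in 0.992% and 2.58%. Among autosomes the share called higher ran from 5.1% on chromosome 13 to 8.94% on chromosome 10, with 8.74% on chromosome 17, which carries the MHC. Within 10 Mb of Kif13b on either side 7.65% of 196 genes were higher and 6.63% lower.

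**Figure D4:**
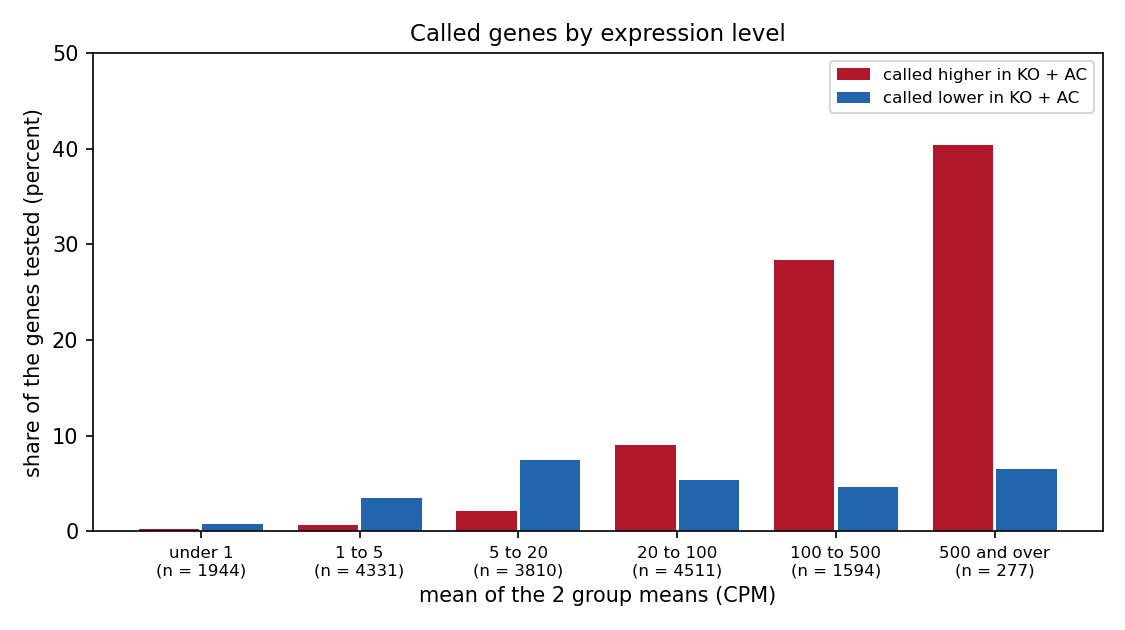
Percentage of genes called higher (red) and lower (blue) in KO + AC in 6 classes of mean CPM, with the number tested in each. The red bars climb from 0.257% to 40.4%, while the blue bars stay between 0.772% and 7.48%.

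The same genotypes without apoptotic cells were in a separate table with larger spread, where 16.2% of 12640 genes were called. The condition and the table divide the libraries in the same way, so they cannot be told apart. By labels, serum there was 10, 10 and 11% in WT and 12, 13 and 14% in KO. Of 1866 genes called with apoptotic cells 1756 were tested there, 73 were called in the same and 309 in the opposite direction. An interaction of genotype and apoptotic cells, from the joint fit, was called for 12.7% of 16810 genes, among them 755 of the 1831 that were called with apoptotic cells and entered that fit.

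Fpr1, Ms4a4a and Marco were on opposite sides in the 2 conditions. Without apoptotic cells Fpr1 had 2.25 ± 0.449 against 8.72 ± 0.955 CPM (log2 -1.95, adjusted p = 7.77e-07), against the rise above, and the interaction was 2.86, adjusted p = 9.77e-11. In the Ms4a family the interaction was called in 2 of 9 members. Ms4a4a had 4.46 ± 0.804 against 14.1 ± 5.01 CPM (log2 -1.66, adjusted p = 0.000357) there (interaction 2.49, adjusted p = 5.62e-05), and Marco had 4.63 ± 0.899 against 10.3 ± 1.87 CPM (log2 -1.15, adjusted p = 0.000412) (interaction 1.77, adjusted p = 5.81e-07). Mfge8 was opposite as well, with 4135 ± 248 against 1797 ± 164 CPM (log2 1.202, adjusted p = 1.23e-05) (interaction -1.78, adjusted p = 2.1e-10). For type I collagen, Col1a2 had 319.8 ± 44.8 against 232 ± 30.6 CPM (log2 0.46, adjusted p = 0.0255) (interaction -1.06, adjusted p = 2.49e-05). For MHC class II the interaction was called in 3 of 10 members. H2-Ab1 was at log2 0.38, adjusted p = 0.0794 without apoptotic cells, with an interaction of 0.43, adjusted p = 0.101, and H2-Aa at log2 0.0032, adjusted p = 0.993, with an interaction of 0.72, adjusted p = 0.00297. Spp1 (interaction -0.20, adjusted p = 0.407) and Mmp12 (interaction 0.15, adjusted p = 0.54) were negative in both. Kif13b itself was lower without apoptotic cells, with 19.5 ± 2.88 against 29.4 ± 1.22 CPM (log2 -0.59, adjusted p = 0.0087) (interaction 0.74, adjusted p = 0.000815), so it followed the labels in that table and not in the one with apoptotic cells. Whether labels were exchanged in either table cannot be told from these counts, and an exchange in 1 of them would turn same directions into opposite ones.

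**Figure D5:**
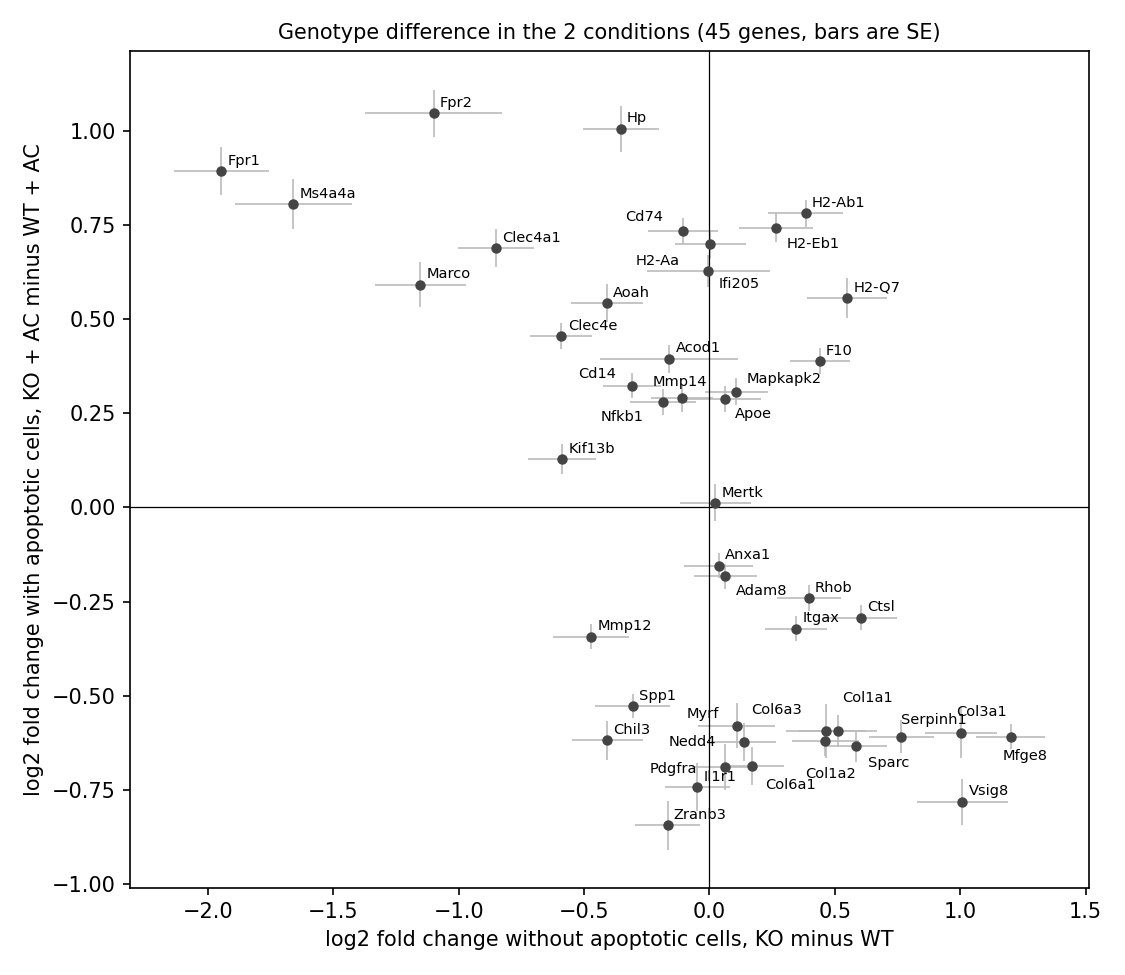
Log2 difference of 45 genes between genotypes without apoptotic cells (KO minus WT, across) and with them (KO + AC minus WT + AC, up), with SE bars, for Kif13b, Mertk and the largest changes tested in both conditions. Fpr1, Fpr2, Ms4a4a, Clec4a1 and Marco stand at the upper left, Mfge8, Col3a1 and Vsig8 at the lower right, and Mertk near 0 on both axes.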

How the data were processed

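RNA of the macrophages was sequenced after poly(A) selection. The authors deposited raw read counts per gene symbol, per the file headers, with 1 table for the 6 libraries with and 1 for the 6 without apoptotic cells. The submitters' processing notes name fastp, HISAT2 2.0.5, DESeq2 1.20.0 and mm10. How reads were counted, on which annotation and with or without strand, is not given in the sources used here, so overlapping and antisense genes are uncertain. Libraries held 17000976 to 17285594 counts.

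Counts were tested in R 4.3.3 with edgeR 4.0.16 (filterByExpr, TMM scaling, robust two-sided quasi-likelihood test, Benjamini-Hochberg adjustment). The interaction came from 1 joint fit of 12 libraries on 54582 shared symbols. In a simulation of this comparison over 16175 genes, 30, 33, 42 and 48 of 50 genes changed 1.25, 1.5, 2 and 3-fold were recovered, with 6 false calls. Counts were drawn from the fitted trend of spread, with equal group means for all other genes. The simulation thus held no difference that changes with level, and its false calls do not cover the dependence on scaling. Positions are from GENCODE vM21 (GRCm38), promoters from RefSeq.

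Named genes are Kif13b, Mertk, the called genes without overlap that rose or fell most (15 each way at a mean of at least 20 CPM, 8 at 500 CPM, without predicted genes and pseudogenes) and up to 6 members of each of 56 lists with the smallest p. A few uncalled or further list members were added after their values were seen. Members and lists were chosen with earlier results of these data known. Alternatives were DESeq2 1.42.0, other scalings, no filter, a replicate block, a joint fit, stricter thresholds, a correction for length and GC content and leaving out each library.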

Additional observations from a re-analysis of the deposited data

Results flagged for a closer look

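In 73 of the 171 genes named here that entered the joint fit, the genotype difference with apoptotic cells differed from that without them by the interaction test of edgeR at an adjusted p under 0.05. Over all genes that share was 12.7%, but the named genes were chosen for their differences. The interaction log2, with minus without apoptotic cells, was above 0 for 42 of them and below 0 for 31. Condition and count table coincide, so which of them goes with these values cannot be told apart.

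Among antigen presentation and costimulation it was Icosl 1.09, Cd74 0.86, H2-Aa 0.72 and H2-Eb1 0.51. For formyl peptide, chemerin, Ms4a and lectin receptors it was Fpr1 2.86, Ms4a4a 2.49, Fpr2 2.17, Clec4a1 1.57, Clec4e 1.07, Clec4a3 0.99, Ms4a6c 0.58, Clec4d 0.51 and Cmklr1 0.51. Among pattern and scavenger receptors it was Marco 1.77, Tlr7 1.22, Cd14 0.66, Stab1 0.63, Mrc1 0.59 and Tlr2 0.58. For NF-kB and cytokine genes it was Traf1 0.74, Nfkbiz 0.72, Tnf 0.58, Nfkb1 0.49, Ccl7 -0.60, Ccl2 -0.63, Il1r1 -0.67 and Csf1 -0.71. Among efferocytosis bridges and engulfment it was Cybb 0.71, Thbs1 0.58, Elmo1 0.54, Itgax -0.64 and Mfge8 -1.78. For collagens and matrix it was Mmp14 0.43, Col6a1 -0.83, Col6a3 -1.04, Col1a2 -1.06, Col1a1 -1.08, Sparc -1.19, Serpinh1 -1.35 and Col3a1 -1.58. Among junctional, stromal and imprinted genes it was Pdgfra -0.73, Cdh2 -0.80, Grb10 -0.87, Meg3 -0.88, Rian -1.23, Acta2 -1.61 and Cdh3 -2.09. For proteases and their inhibitors it was Serpinb2 1.04, Ctsc 0.54, Ctsl -0.87 and Ctsk -1.33. Among iron, metabolism and stress it was Hp 1.39, Hif1a 0.80, Slc7a11 0.73, Arg1 0.70, Mylip 0.54, Tfrc 0.42 and Steap3 -0.63. The remaining genes were F13a1 2.02, Ncapg2 1.36, Aoah 0.98, Kif13b 0.74, Mitf 0.69, Ifi205 0.66 and Adgre1 0.45 above 0 and Rhob -0.61, Zranb3 -0.65, Myrf -0.66, Mcm5 -0.67, Nedd4 -0.74, Lat -0.87, Vsig8 -1.76 and Htr2b -2.14 below it.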

How the results depend on the processing

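Of the 1866 called genes, 1103 had an adjusted p under 0.01 and 28 changed at least 2-fold. DESeq2 called 1220 (348 lower) and the joint fit 157 (68 higher, 89 lower), while the correction for length and GC content called 1772 higher and scaling on abundant genes 525 higher and 1686 lower. Leaving out each library in turn gave 1192 to 2142 calls, 712 to 1332 higher and 480 to 810 lower, and 1129 to 4330 calls for the interaction, lowest without library 3 of WT and highest without library 3 of KO. In the joint fit the called members fell to 4 for MHC class II, 0 for class I, 2 for cytokines, 2 higher and 1 lower for efferocytosis, 8 for matrix and 0 for mitosis, and DESeq2 called 11 mitosis genes lower. The larger spread of the libraries without apoptotic cells enters that fit. Kif13b was at 0.151 in the joint fit, 0.066 with scaling on abundant genes and 0.103 to 0.143 with a library left out. Uncalled values changed sign in some settings. With scaling on abundant genes Mertk was at -0.050, Acta2 at -0.021 and Pdgfrb at -0.019, and leaving out a library gave -0.0263 to 0.0455 for Mertk, -0.0203 to 0.0771 for Acta2, -0.0383 to 0.111 for Pdgfrb, -0.0177 to 0.110 for Gas6, -0.120 to 0.259 for H2-Ob and -0.0884 to 0.00206 for Pros1. Of 157 called genes named here, DESeq2 ended the calls of 3, scaling on abundant genes of 5 and DESeq2 size factors of 0.

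Replicate numbers are shared between the groups, but same-numbered libraries did not deviate together (correlations across 8347 genes of 0.104, -0.154 and -0.199 for numbers 1, 2 and 3). Between different numbers the correlations ran from -0.188 (KO + AC 1 with WT + AC 2) to 0.305 (KO + AC 3 with WT + AC 2). A block by number does not take up a deviation shared by different numbers. With the replicate block 1649 genes were called, 952 higher and 697 lower, and no call of a gene named here was lost. It lowered the count called higher from 7 to 4 for engulfment genes and from 3 to 1 for alternative activation genes.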
